A study of Mus musculus with 8 samples.

Results

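Clonal expansion of 3T3-L1 preadipocytes was compared with the quiescent state the cells left, using 4 of the 8 RNA-seq libraries of a study of 4 stages of fat cell formation. The 4 libraries were the 2 of quiescence and the 2 of clonal expansion, and they were chosen by their stage labels, not by any measured value. Genes entered the comparison where their mean over all 8 libraries was at least 10, which left 14647 of the 22798 rows of the table. 3T3-L1 is an established fibroblast line of Swiss albino mouse origin that can form fat cells in culture. All cells were grown in DMEM with 10% fetal bovine serum. Quiescent cells had been confluent for 48 h and had received no hormone. Clonal expansion cells were taken 10 h into the hormone cocktail of insulin (5 µg/µl), dexamethasone (1 µM) and isobutylmethylxanthine (0.25 mM), which the protocol applied for 48 h. The other stages were proliferation, and differentiation at day 6 after the cocktail. No untreated culture kept 10 h longer was analysed here, so the cocktail, its 10 h and any change of medium that went with it cannot be told apart. All 8 libraries came from this 1 line. Both libraries of a stage carry an experiment number, 1 or 2, but nothing says whether they were separate cultures. The p-values below therefore measure the spread between libraries of the same stage, pooled over all 8 libraries. This spread may be technical.

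Preadipocytes that reach confluence stop dividing. Exposed to insulin, a glucocorticoid and an agent that raises cyclic AMP, they re-enter the cell cycle, pass through a limited number of divisions known as mitotic clonal expansion, and only then switch on the fat cell programme. Each part of the cocktail has a known route: dexamethasone acts through the glucocorticoid receptor, isobutylmethylxanthine blocks phosphodiesterases and so raises cyclic AMP, which signals through protein kinase A and CREB, and insulin at a high dose also acts through the IGF-1 receptor. The transcription factors C/EBPβ and C/EBPδ come first in this cascade, and they precede PPARγ and C/EBPα.

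Values are pseudo-counts, which are the authors' read counts scaled for library size, a scaling the deposit names RLE. It left the column totals unequal. Differences are on the log2(pseudo-count + 1) scale with their standard error. This scale understates the change of genes near 0. Column totals ran from 122413485 to 151529060, with 127369893 and 125893531 at quiescence and 151529060 and 146570940 at clonal expansion. Across genes the libraries of each stage correlated at r = 0.9929 at quiescence and 0.9955 at clonal expansion. Between the quiescent libraries a difference followed transcript length: the second library minus the first had a median of −0.253 (log2) in the group of shortest genes and 0.246 in the group of longest genes, with genes cut into 5 equal groups. At clonal expansion the same medians were −0.114 and 0.0857. The stage difference moved little with length, with medians of 0.0368 in the shortest and −0.0213 in the longest group. All 16 fibroblast and preadipocyte markers on a list were expressed at both stages, among them Pdgfra, Thy1 and Vim. These are bulk libraries, in which fewer cells of a type and less RNA per cell cannot be told apart.

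At clonal expansion 5038 genes (34.4%) were higher and 5033 (34.4%) lower than at quiescence, by limma with a two-sided test and a Benjamini-Hochberg adjusted p under 0.05 over 14647 genes with 2 libraries per stage. At least 2-fold differences were fewer, with 2117 genes higher (14.5%) and 2910 lower (19.9%). Of these, 90 rose and 173 fell at least 16-fold. The genes that rose at least 2-fold took 10.4% and 9.97% of all pseudo-counts in the quiescent libraries and 26.7% and 26.6% at clonal expansion. The genes that fell at least 2-fold went from 14.4% and 14.3% to 4.64% and 4.37%. The median level of the genes that rose was 2097 pseudo-counts at quiescence and 6155 at clonal expansion, and that of the genes that fell was 557 and 126. When every library was instead scaled to the same total, the median of all genes shifted by −0.239 (log2), 3768 genes were higher and 6302 lower, and the share of calls that were higher went from 50% to 37.4%. Where this scaling turned the balance of a list, its counts are given beside the list.

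**Figure D1:**
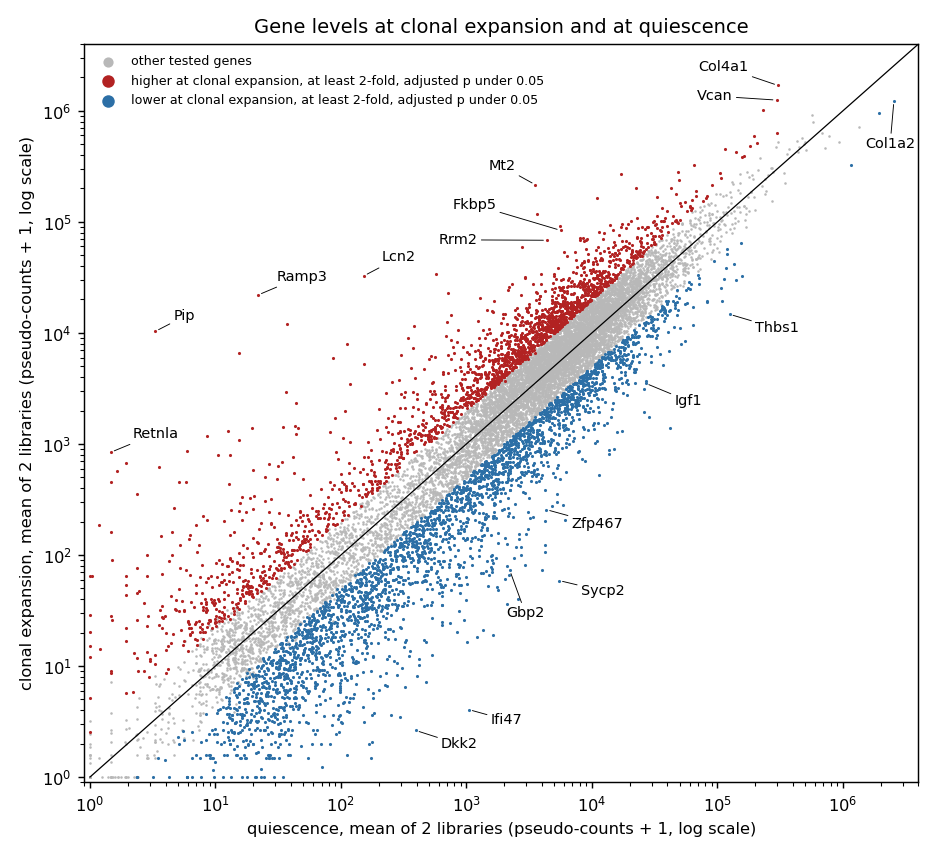
Each point is a tested gene, with its mean level in the 2 quiescent libraries on the x axis and in the 2 clonal expansion libraries on the y axis, both as pseudo-counts + 1 on log scales; red and blue points differed at least 2-fold with a limma adjusted p under 0.05. Pip, Ramp3 and Retnla lie farthest above the line of equal levels, Ifi47 and Dkk2 farthest below it, and Col4a1 and Vcan rose among the most abundant genes.

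Pip showed the largest rise of all. This gene (mm9 chr6:41797548-41802061), which encodes a secreted prolactin-induced protein, measured 3.76 and 0.876 pseudo-counts at quiescence and 9166 and 11492 at clonal expansion (log2 difference 11.75 ± 0.62, limma adjusted p = 3.12e-07). It was 2.12 and 10.3 in the proliferating and 2.13 and 4.11 in the differentiated libraries, so only the clonal expansion libraries held it at a high level. Ramp3 (mm9 chr11:6558624-6577478), a partner protein of the adrenomedullin receptor, went from 30 and 11.8 to 24309 and 19609 (log2 difference 10.10 ± 0.36), and it too was low at the other stages, with 52.7 and 50.4 at proliferation and 39.6 and 30.4 at differentiation. Retnla, which encodes a secreted resistin-like protein, went from 0 and 0.936 to 976 and 706, and stood at 2282 and 809.5 in the differentiated libraries. Prg4, the joint lubricant lubricin, rose from 43.3 and 29.5 to 11369.9 and 12834 (log2 difference 8.36 ± 0.25). Lcn2, the siderophore-binding lipocalin 2, rose from 153 and 149.8 to 35998 and 29375 (log2 difference 7.74 ± 0.17). The other large rises were of Ear1, Akp3, Krt23, H2-M1, H2-M9, Serpina3k, Krt16, Mtap7d2, Serpina3m and Gm949, with log2 differences of 6.51 to 8.83. Ear1, the H2-M genes and the Serpina3 genes belong to families of near-identical copies, so how their reads were divided is uncertain.

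Ifi47 showed the largest fall. It is an interferon-inducible GTPase (mm9 chr11:48908891-48910473), and it measured 1045 and 1045 at quiescence and 4.76 and 1.34 at clonal expansion (log2 difference −8.16 ± 0.42, limma adjusted p = 2.97e-07). Dkk2, a secreted modulator of Wnt signalling (mm9 chr3:131748256-131843268), went from 416 and 370.2 to 0.922 and 2.33 (log2 difference −7.28 ± 0.34). Sycp2, a component of the meiotic synaptonemal complex, went from 4874 and 6060.2 to 70.9 and 44.8, and Pdgfb, the B chain of platelet-derived growth factor, from 576 and 484 to 20 and 2.93. The rule that picked these genes required both clonal expansion libraries to lie on 1 side of both quiescent ones. Of all 14647 tested genes, 12100 (82.6%) had no overlap between the 2 stages. Other large falls were of Sema5b, Sh2d3c, Ddx60, Mrvi1, I830012O16Rik, Adh1, Trpm5, Abca8a, Sorbs2 and Fam135b, with log2 differences of −5.61 to −6.49. Ddx60 acts in antiviral defence.

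A stricter view of genes that appeared or disappeared counted those below 10 pseudo-counts in both libraries of one stage and at least 100 in both of the other. There were 22 such genes that appeared and 39 that disappeared. Those that appeared included Dio2, the deiodinase that activates thyroid hormone (1.79 and 5.62, then 224 and 306), Notum, a secreted inhibitor of Wnt proteins (5.29 and 1.79, then 166 and 156), and Il1rn, the interleukin-1 receptor antagonist (4.59 and 7.45, then 195 and 178). Those that disappeared included Tmem200a (149.7 and 200.5, then 2.83 and 2.42) and the glial filament gene Gfap (194 and 165, then 4.71 and 4.78). Dio2, Notum and Tmem200a were picked from this count after their values were seen.

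The 44 lists of genes with a shared function did not move alike. Ribosome biogenesis, DNA replication, nucleotide synthesis, G1 cyclins and ER folding had mostly higher members, and interferon-stimulated genes, small matrix proteins, complement, Notch and actin genes had more lower than higher members.

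**Figure D2:**
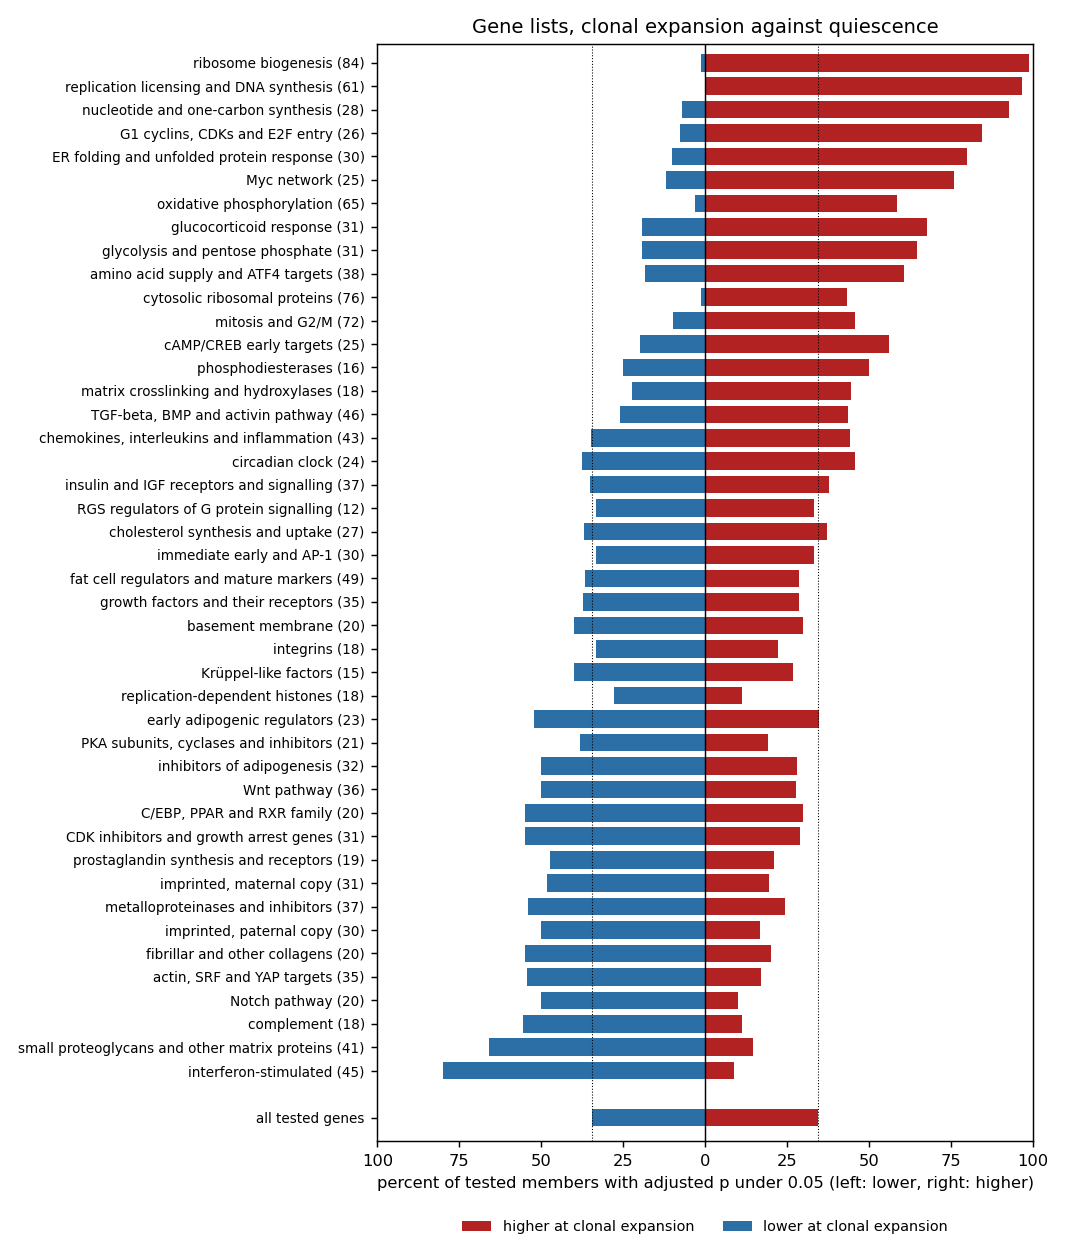
For each gene list, with its number of tested members in brackets, the red bar gives the percent of members called higher at clonal expansion than at quiescence and the blue bar the percent called lower. Dotted lines mark the 34.4% found for all tested genes in each direction; ribosome biogenesis lies at one end and interferon-stimulated genes at the other.

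Genes known to respond to glucocorticoids rose together: 21 of 31 tested members were higher and 6 lower, with a median log2 difference of 1.40 against −0.006 for all tested genes. Fkbp5, a co-chaperone of the glucocorticoid receptor, measured 5688 and 5563 at quiescence and 85567 and 82102 at clonal expansion, a 14.9-fold rise (log2 difference 3.90 ± 0.10, limma adjusted p = 1.21e-08). Tsc22d3, also called GILZ, an anti-inflammatory mediator of glucocorticoid action, rose 7.72-fold from 9342 and 8594 to 67822 and 70571. The clonal expansion libraries were the highest of all 8 for both genes. This pattern was not counted over all tested genes, of which 82.6% had no overlap between clonal expansion and quiescence. Mt2, a metal-binding metallothionein, rose from 3883 and 3181 to 220129 and 212264 (log2 difference 5.94 ± 0.14). Fam107a rose from 43.8 and 26.6 to 2897 and 2980.2 (log2 difference 6.39 ± 0.23), and Saa3, an acute-phase protein, from 63.4 and 26 to 1514 and 1257 (log2 difference 5.05 ± 0.40). Not all members followed. Nr3c1, the glucocorticoid receptor itself, fell from 24479 and 36781 to 10887 and 11247 (log2 difference −1.44 ± 0.16, limma adjusted p = 2.61e-05). Angptl4, an inhibitor of lipoprotein lipase, fell from 21679.8 and 23227 to 5409 and 4137, and Lpin1, a phosphatidate phosphatase, from 3343 and 3716 to 1662 and 1503. Against proliferation, the other untreated stage, which shares the clonal expansion libraries with the first comparison, 21 members of the list were again higher and 6 lower. Of all tested genes 4792 (32.7%) were higher and 4708 (32.1%) lower in that comparison.

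Early targets of cyclic AMP and CREB divided. Of 25 tested members, 14 were higher and 5 lower, with a median log2 difference of 0.93. Nr4a3, an orphan nuclear receptor, rose from 6.46 and 8.61 to 215 and 194 (log2 difference 4.60 ± 0.38, limma adjusted p = 3.52e-06). Rgs2, which curbs G protein signalling, rose from 2357 and 2230.3 to 30029 and 24850 (log2 difference 3.57 ± 0.11), and Nfil3, a basic leucine zipper repressor, from 1503 and 1437 to 17167 and 14994 (log2 difference 3.45 ± 0.11). The interleukin gene Il6 rose from 52 and 46.2 to 505 and 463. In these genes the clonal expansion libraries lay above both quiescent ones, but 82.6% of all tested genes had no overlap between the stages. The related receptor Nr4a1 measured 4786 and 4763 and then 18477 and 18799 (log2 difference 1.96 ± 0.63, limma adjusted p = 0.0188), but its call ended under 2 of 18 alternative analyses, with no filter on low values and with no variance trend, and its adjusted p ran from 1.72e-06 to 0.168 over all of them. All 8 libraries enter each standard error. The list summed to 90008 and 240928 pseudo-counts in proliferation libraries 1 and 2, against 98642 and 97139 at quiescence and 208516 and 205017 at clonal expansion. Members that fell were Egr1 (22974 and 21431, then 3324 and 3698), Fosb (543 and 555, then 114 and 99), Ppargc1a, the coactivator of mitochondrial genes (645 and 953, then 149 and 135), and the small GTPase Gem (10817 and 10866, then 2905 and 2689.6). Crem, the cyclic AMP response modulator, measured 585 and 512 at quiescence and 733 and 651 at clonal expansion, which was not called (log2 difference 0.33 ± 0.17, limma adjusted p = 0.107). It was called higher under 2 of 18 alternatives, with adjusted p from 0.00217 to 0.619.

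The palindromic cyclic AMP response element TGACGTCA, searched on both strands in RefSeq promoter windows of 300 bases (250 before to 50 after the start, GRCm38.p6), occurred in 2.91% of the windows of tested genes, in 3.19% of those of genes that rose at least 2-fold and in 1.79% of those that fell at least 2-fold. Windows were at hand for 11440 of the 14646 tested gene identifiers. In the list of early cyclic AMP targets it occurred in 2 of 27 windows (7.41%), and its shorter part TGACG, which the palindrome contains, in 20 (74.1%), against 29.4% of the windows of tested genes. A match is a description of the letters only. The window of Dusp1 (chr17:26508423-26508722, minus strand) is printed because Dusp1 was called and its window holds the whole element. Dusp1 encodes a phosphatase that switches off MAP kinases, is a target of both cyclic AMP and glucocorticoids, and rose from 2146 and 1915 to 14721 and 15011 (log2 difference 2.87 ± 0.43, limma adjusted p = 0.000188). Capitals mark the element, which begins 143 bases before the start.
Dusp1: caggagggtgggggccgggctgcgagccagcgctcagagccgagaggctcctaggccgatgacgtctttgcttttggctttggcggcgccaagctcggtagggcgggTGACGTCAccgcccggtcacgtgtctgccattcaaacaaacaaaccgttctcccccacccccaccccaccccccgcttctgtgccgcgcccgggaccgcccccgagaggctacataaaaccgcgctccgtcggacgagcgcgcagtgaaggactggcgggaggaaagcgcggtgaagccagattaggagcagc

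Isobutylmethylxanthine blocks phosphodiesterases that break down cyclic nucleotides. The list of phosphodiesterases counted here was not limited to such enzymes, and it also holds Pde12 and Pde6d. Of its 16 tested members, 8 were higher and 4 lower. Pde10a rose from 471 and 588 to 3529.6 and 3532 (log2 difference 2.74 ± 0.15), Pde4b from 3305 and 3229 to 15090.2 and 13734 (log2 difference 2.14 ± 0.15) and Pde4d from 5940.3 and 6707 to 17422 and 16645 (log2 difference 1.43 ± 0.13). Pde4b and Pde4d are specific for cyclic AMP. Pde1b, which calcium and calmodulin activate, fell from 339 and 201 to 15.1 and 17.8 (log2 difference −3.91 ± 0.27). Among 21 genes of adenylyl cyclases, protein kinase A and CREB, 4 were higher and 8 lower. Prkar2a, a regulatory subunit of protein kinase A, rose from 6031 and 6669.9 to 25338 and 26925 (log2 difference 2.04 ± 0.14). Pkia, an inhibitor of the kinase, fell from 2741 and 3145 to 548 and 557 (log2 difference −2.41 ± 0.14), and the cyclase Adcy7 from 931 and 1073 to 306 and 332. The regulators of G protein signalling split 4 against 4 among 12 tested, or 33.3% each way, near the 34.4% of all tested genes. They were 3 higher and 4 lower when libraries were scaled to the same total. Beside the rise of Rgs2, Rgs8 fell from 1774 and 1818 to 50 and 45.5 (log2 difference −5.21 ± 0.27) and Rgs16 from 7591 and 6570.2 to 1204 and 919 (log2 difference −2.75 ± 0.16).

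**Figure D3:**
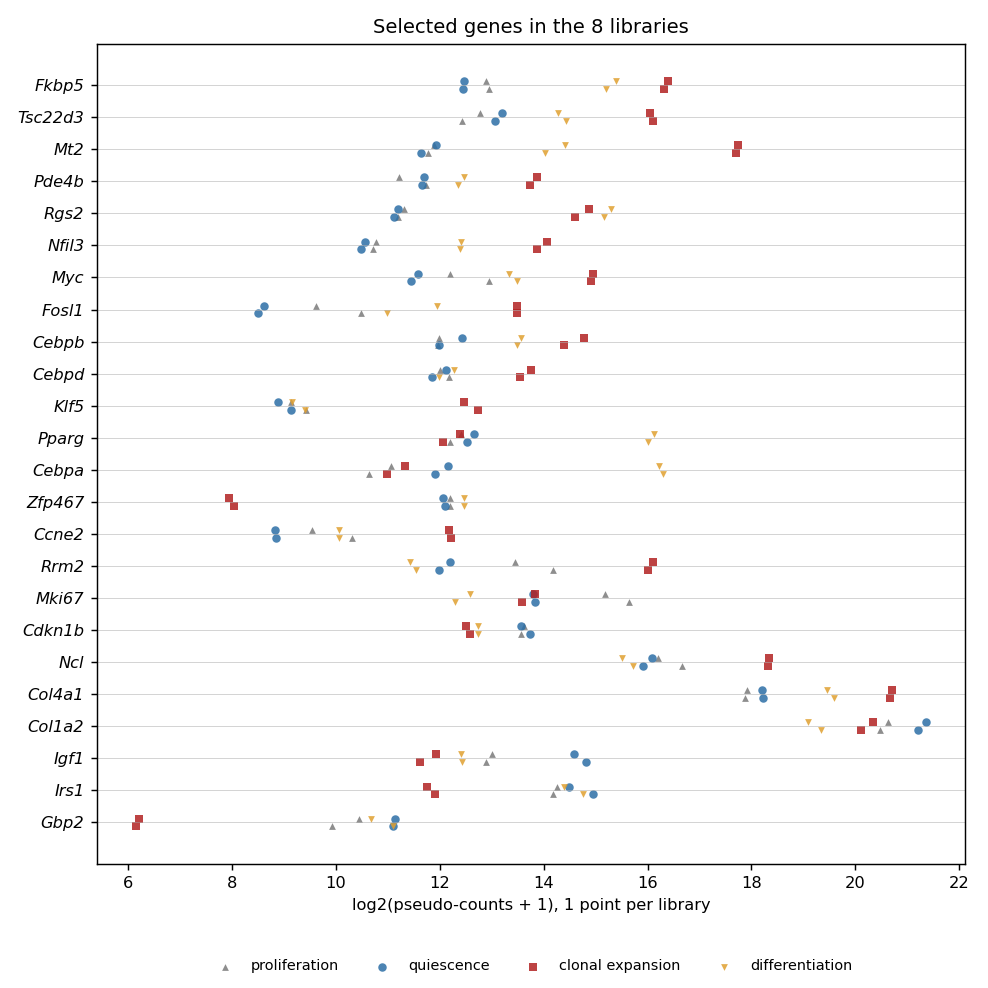
Level of 24 genes in each of the 8 libraries, as log2(pseudo-counts + 1), with 2 points per stage. The clonal expansion libraries (squares) lie to the right of the quiescent ones (circles) for the genes from Fkbp5 to Klf5 and to the left of them for Zfp467, Igf1, Irs1 and Gbp2, while the circles and squares of Mki67 overlap.

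Immediate early genes, which respond to growth factors within minutes, showed no common direction at 10 h. Of 30 tested, 10 were higher and 10 lower, or 33.3% each way, with a median log2 difference of 0.12. Of all tested genes, 34.4% were called in each direction. When libraries were scaled to the same total, 9 members were higher and 13 lower. The list summed to 189869 and 546139 pseudo-counts in proliferation libraries 1 and 2, which also enter the standard errors. At quiescence the sums were 187513 and 186709.8, and at clonal expansion 243247 and 240779. Fosl1, which encodes the AP-1 protein Fra-1, rose from 392 and 363 to 11469.8 and 11426 (log2 difference 4.92 ± 0.31, limma adjusted p = 8.09e-07), and Myc, the growth-promoting transcription factor, from 3062 and 2794 to 31529 and 30707 (log2 difference 3.41 ± 0.20, limma adjusted p = 5.22e-07). Maff rose from 717 and 634 to 3424 and 3186. Egr2 fell from 1539 and 1356 to 165 and 169.9 (log2 difference −3.10 ± 0.77), a call that ended under 1 of 18 alternatives, with no filter on low values (adjusted p 1.09e-05 to 0.0892 over the alternatives). Fos measured 1599.9 and 897 at quiescence and 1404 and 1509 at clonal expansion, and the libraries of the stages overlapped (log2 difference 0.28 ± 0.95, limma adjusted p = 0.807).

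Genes of insulin and IGF signalling were called in similar numbers each way, 14 higher (37.8%) and 13 lower (35.1%) of 37 tested. These shares were near the 34.4% of all tested genes in each direction. When libraries were scaled to the same total, the balance became 6 higher and 16 lower. The number higher was 7 without clonal expansion replicate 1 and 9 without clonal expansion replicate 2. The receptor adaptors went opposite ways. Irs2 rose from 2548 and 3842 to 7655 and 9287 (log2 difference 1.43 ± 0.18, limma adjusted p = 5.38e-05), while Irs1 fell from 22830 and 31601 to 3450.5 and 3868, 7.35-fold (log2 difference −2.88 ± 0.17, limma adjusted p = 5.05e-07). Igf1, the growth factor that signals through these adaptors, fell from 24498 and 28965 to 3907 and 3127 (log2 difference −2.93 ± 0.13). Trib1 rose from 2168 and 2152 to 10343 and 9991 and Trib3, an inhibitor of Akt, fell from 7214 and 6644 to 1828 and 1634.

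Cholesterol synthesis and uptake genes were called 10 higher and 10 lower of 27 tested, or 37% each way. These shares were near the 34.4% of all tested genes in each direction. When libraries were scaled to the same total, 4 members were higher and 13 lower. The number higher was 6 without clonal expansion replicate 1, and the number lower 6 without clonal expansion replicate 2. Against proliferation 2 were higher (7.41%) and 23 lower (85.2%), with a median of −1.53, where 32.7% and 32.1% of all tested genes were called. Pmvk, which acts in the mevalonate pathway, rose from 2216 and 1917 to 8469 and 7315 (log2 difference 1.93 ± 0.12). Mylip, a ubiquitin ligase, fell from 5704 and 6486 to 1538 and 1439.9 (log2 difference −2.03 ± 0.15), and Fdft1, squalene synthase, from 4777 and 3758 to 2127 and 1686. Hmgcs1 is listed at 0, in a row placed on chromosome 13random, and was not tested. The level of this gene in the cells cannot be read from that row.

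Cebpb and Cebpd, the early C/EBP factors of the adipogenic cascade, rose, while Cebpa and Pparg did not. Cebpb measured 5478 and 4051 at quiescence and 27886 and 21541 at clonal expansion, 5.2-fold more (log2 difference 2.38 ± 0.16, limma adjusted p = 1.01e-06). Cebpd rose 3.18-fold from 4462 and 3676 to 13804 and 12002, and Klf5, a Krüppel-like factor that acts early in adipogenesis, 12-fold from 473 and 565 to 5635 and 6852. Both clonal expansion libraries lay above every library of the other stages for these 3 genes. How many of all tested genes did so was not counted. Against quiescence alone, 82.6% had no overlap between the stages. Cebpa, by contrast, fell from 4576 and 3867 to 2577 and 2018 (log2 difference −0.88 ± 0.16, limma adjusted p = 0.000804), far under the 76421 and 80355 of the differentiated libraries. Pparg measured 6455 and 5884 and then 5392 and 4295, and 71292 and 65599 at differentiation. Its fall from quiescence was small (log2 difference −0.36 ± 0.13, limma adjusted p = 0.0328), and the call ended under 7 of 18 alternatives, among them without quiescence replicate 1 and without clonal expansion replicate 2 (adjusted p 0.00202 to 0.29 over the alternatives). Klf4, which acts upstream of Cebpb, measured 9033 and 9028 and then 8224 and 7003 and was not called (limma adjusted p = 0.052), although 5 of 18 alternatives called it lower, among them the scaling to the same total and the fit without clonal expansion replicate 1 (adjusted p 0.00136 to 0.405).

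Over the list of early adipogenic regulators 8 of 23 were higher and 12 lower. Xbp1, a transcription factor of the unfolded protein response, rose from 10423 and 8755 to 24739 and 23177. Zfp467, Zfp423 and Ebf1, transcription factors that act in preadipocytes, were among the members with the largest falls. Zfp467 fell 16.9-fold, from 4261 and 4386 to 247 and 264 (log2 difference −4.08 ± 0.10, limma adjusted p = 1.21e-08), and its level was 4688 and 4668 at proliferation and 5665 and 5654 at differentiation, so that the clonal expansion libraries were the only low ones. Zfp423 fell from 4671 and 4562 to 973 and 981 (log2 difference −2.24 ± 0.15) and Ebf1 from 8157 and 11747 to 3332 and 3327 (log2 difference −1.56 ± 0.16).

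Genes of the mature fat cell were mixed, with 14 higher (28.6%) and 18 lower (36.7%) of 49 tested. These shares were near the 34.4% of all tested genes in each direction. Against proliferation 28 were higher (57.1%) and 12 lower (24.5%), with a median of 0.48, where 32.7% and 32.1% of all tested genes were called. Scd1, the stearoyl-CoA desaturase, rose from 11128 and 10682 to 172657 and 155802 (log2 difference 3.91 ± 0.11, limma adjusted p = 2.68e-08), and Fasn, fatty acid synthase, from 50448 and 49698 to 148765 and 148015 (log2 difference 1.57 ± 0.11). Hp, haptoglobin, rose from 324 and 276 to 3831 and 1751. Plin2 and Plin4, which coat lipid droplets, fell: Plin2 went from 16867 and 13901 to 3549 and 2981 (log2 difference −2.23 ± 0.13) and Plin4 from 15609 and 18983 to 6239.9 and 5103 (log2 difference −1.61 ± 0.14). Adipoq, the hormone adiponectin, fell from 910.2 and 744 to 397 and 422 (log2 difference −1.01 ± 0.21, limma adjusted p = 0.00157). Fabp4, the fatty acid carrier of fat cells, measured 2359.7 and 1736 and then 2115 and 2351, with overlapping libraries (log2 difference 0.14 ± 0.14, limma adjusted p = 0.387), against 1145776 and 1095174 at differentiation. Without quiescence replicate 1 it was called higher, and the adjusted p ran from 0.0122 to 0.775 over the alternatives.

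Known inhibitors of adipogenesis were called lower in 16 and higher in 9 of 32 tested cases. Gata2 fell from 5381 and 5275 to 1443 and 1599.5 (log2 difference −1.81 ± 0.18), Gata3 from 722 and 734 to 139 and 140.4 (log2 difference −2.37 ± 0.18) and Klf2 from 1702 and 1521 to 357 and 359.8 (log2 difference −2.16 ± 0.29). The ligand gene Wnt6 fell from 957 and 1025 to 167 and 193, and Twist1 from 22638 and 18031 to 5488 and 5272. The Id proteins, which block basic helix-loop-helix factors, rose: Id2 went from 3387 and 3719.6 to 10650.2 and 9998 and Id3 from 8706 and 6859 to 20961 and 18425. Dlk1, the surface protein Pref-1 that holds preadipocytes undifferentiated, measured 564051 and 448657 and then 466642 and 415846 with overlapping libraries (log2 difference −0.19 ± 0.16, limma adjusted p = 0.298). Scaling to the same total and quantile normalization both called Dlk1 lower, and its adjusted p ran from 0.000665 to 0.896 over the alternatives.

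Genes of cell cycle entry rose. Of 26 G1 cyclins, kinases and E2F factors, 22 were higher and 2 lower, with a median log2 difference of 1.12. Ccne2, one of the E cyclins that start DNA replication, measured 453 and 461 at quiescence and 4655 and 4734 at clonal expansion, 10.2-fold more (log2 difference 3.36 ± 0.21, limma adjusted p = 7.69e-07). Ccne1 rose 5.05-fold from 2568 and 2097 to 11794 and 11642, and Ccnd1, cyclin D1, 2.52-fold from 66974 and 57759.7 to 161159 and 152405. The clonal expansion libraries stood above every other library for all 3 cyclins. The share of all tested genes with this pattern was not counted, but 82.6% had no overlap with quiescence. E2f1 rose from 7742 and 6573 to 12407 and 12688 and the E2F repressor E2f8 from 913 and 882 to 3295 and 3496. Both members that fell encode pocket proteins that restrain E2F: Rb1 went from 2230 and 2596 to 1036 and 1079 (log2 difference −1.19 ± 0.12) and Rbl2 from 9426 and 11165 to 4251 and 4463 (log2 difference −1.24 ± 0.11).

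DNA replication genes moved as a block. Of 61 tested, 59 were higher and 0 lower, 47 of them at least 2-fold (1 was lower without quiescence replicate 2), with a median log2 difference of 1.43. Their summed level went from 263323 and 246843 pseudo-counts at quiescence to 858526 and 843642 at clonal expansion. Rrm2, the subunit of ribonucleotide reductase whose level limits the supply of DNA precursors, rose 15.6-fold from 4693 and 4069.9 to 70532 and 66055 (log2 difference 3.96 ± 0.20, limma adjusted p = 2.3e-07). Cdc6, which loads the replicative helicase, rose 12.4-fold from 881 and 839 to 10474 and 10952. Mcm5, a subunit of that helicase, rose 6.11-fold from 8006 and 6827 to 44976 and 45433, and Ung, the uracil glycosylase, 11.7-fold from 562 and 438 to 5729 and 5908. No clonal expansion library came near a quiescent one in these genes, though 82.6% of all tested genes had no overlap between the stages. Against proliferation the list had 43 higher and 5 lower, with a median of 0.76, so most members were above the level of dividing cells as well; Mcm5 measured 17880 and 25976 there.

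Matches to the E2F site (TTTCGCGC or TTTGGCGC, either strand) occurred in 12 of 57 promoter windows of the replication list (21.1%), against 1.41% of the windows of all tested genes, 2.73% of those of genes at least 2-fold higher, 0.465% of those at least 2-fold lower and 5.97% for the mitosis list. The windows of Orc1 and Clspn are shown because these called members changed most among those with such a match. Orc1, the largest subunit of the origin recognition complex, rose from 624 and 678 to 4173 and 4426 (log2 difference 2.72 ± 0.16), and its window is chr4:108579204-108579503, plus strand (GRCm38.p6, RefSeq), with the match 27 bases before the start. Clspn, the replication checkpoint adaptor claspin, a gene chosen after its values were seen, rose from 1536 and 1552 to 9983 and 10014, and its window is chr4:126556730-126557029, plus strand, with the match 21 bases after the start. Capitals mark the match.
Orc1: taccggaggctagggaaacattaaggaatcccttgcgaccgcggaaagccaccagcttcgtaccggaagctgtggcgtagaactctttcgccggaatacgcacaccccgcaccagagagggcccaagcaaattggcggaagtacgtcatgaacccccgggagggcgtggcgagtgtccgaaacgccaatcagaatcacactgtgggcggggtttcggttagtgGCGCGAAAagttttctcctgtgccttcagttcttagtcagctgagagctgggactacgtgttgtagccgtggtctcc
Clspn: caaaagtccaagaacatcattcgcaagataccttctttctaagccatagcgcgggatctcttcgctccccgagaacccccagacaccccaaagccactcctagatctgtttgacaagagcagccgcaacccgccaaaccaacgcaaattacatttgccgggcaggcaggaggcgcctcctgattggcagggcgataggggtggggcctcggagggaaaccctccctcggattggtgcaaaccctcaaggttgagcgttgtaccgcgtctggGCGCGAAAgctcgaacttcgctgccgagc

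Of the mitosis genes fewer were called higher. Of 72 tested, 33 were higher and 7 lower, with a median log2 difference of 0.33, and 21 and 9 when libraries were scaled to the same total. The number higher was 22 without clonal expansion replicate 1 and 19 with no filter on low values, and the number lower was 4 without quiescence replicate 1 and 2 without clonal expansion replicate 2. Against proliferation 2 were higher and 60 lower, with a median of −1.12. Top2a, topoisomerase II, which also serves in S phase, rose the most, from 14975 and 14442 to 62427 and 56193 (log2 difference 2.01 ± 0.16, limma adjusted p = 3.47e-06). Mki67, the proliferation antigen Ki-67, measured 14127 and 14537 at quiescence and 14629 and 12322 at clonal expansion, with overlapping libraries (log2 difference −0.094 ± 0.16, limma adjusted p = 0.625), against 37134 and 51212 at proliferation. Ccnb1, cyclin B1, measured 2052 and 1505 and then 2455 and 1825, again overlapping (log2 difference 0.27 ± 0.22, limma adjusted p = 0.305), against 4545 and 6824 at proliferation. Ccnb2 fell from 2337 and 1634 to 1203 and 797 (log2 difference −1.0 ± 0.23), a call that ended under 1 of 18 alternatives, with no filter on low values (adjusted p 0.000869 to 0.0565). Cdk1, the kinase of mitotic entry, rose from 5554 and 4232 to 9560.4 and 8588 (log2 difference 0.90 ± 0.19, limma adjusted p = 0.00162).

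**Figure D4:**
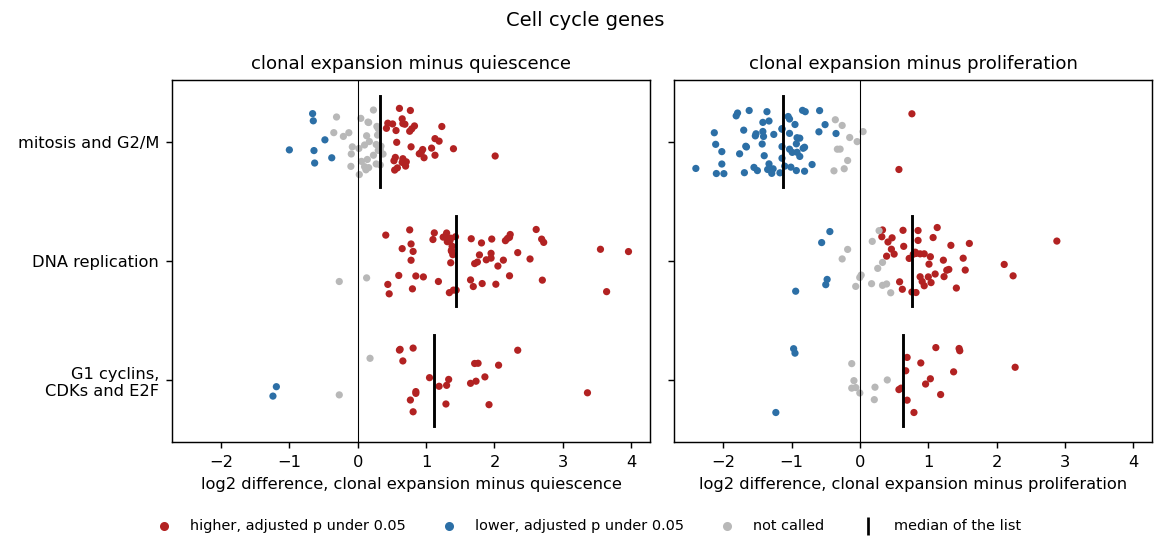
Each point is a gene of the G1, DNA replication or mitosis list, placed by its log2 difference between clonal expansion and quiescence (left) or proliferation (right); black bars mark list medians. The median of the replication genes lies above 0 against both stages (1.43 and 0.76), while that of the mitosis genes lies above 0 against quiescence (0.33) and below it against proliferation (−1.12).

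Of the 43 histone genes expressed in S phase only 18 passed the filter on low values, 2 of them higher and 5 lower. Hist1h1c fell from 14171 and 10276 to 4727 and 3083 (log2 difference −1.66 ± 0.23). Most of these transcripts lack a poly(A) tail, and their genes are near-identical copies. The labels name the library kit and do not say how RNA was selected. The list's counts turned to 5 higher and 2 lower under quantile normalization and were 1 and 3 without clonal expansion replicate 2. Without quiescence replicate 2 or clonal expansion replicate 1 they were 1 and 5.

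Among 31 CDK inhibitors and growth arrest genes 17 were lower and 9 higher. Cdkn1b, which encodes p27, fell from 12096 and 13694 to 5782 and 6117 (log2 difference −1.11 ± 0.10, limma adjusted p = 5.73e-06). Cdkn1c, which encodes p57, fell from 25.4 and 26.3 to 0 and 1.15. Cdkn1a, which encodes p21, measured 29909 and 25120.1 and then 39937 and 32568 (log2 difference 0.40 ± 0.12, limma adjusted p = 0.0166), and its rise ended under 6 of 18 alternatives, among them without quiescence replicate 2 and without clonal expansion replicate 1 (adjusted p 0.00233 to 0.471). The growth arrest genes Gas1 and Gas2 fell, Gas1 from 105574 and 108920.2 to 27495 and 23669 and Gas2 15.7-fold from 14647 and 12578 to 1039.8 and 720.3. Gas6, a ligand of the Axl receptor family, rose from 217224 and 171266 to 639536 and 539938 (log2 difference 1.61 ± 0.16), and Tob2, an antiproliferative factor, from 6244 and 5504 to 26505 and 25653.

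Ribosome biogenesis rose almost without exception: 83 of 84 tested members were higher and 1 lower, 77 at least 2-fold higher, with a median log2 difference of 1.70. Against proliferation 83 were higher and 0 lower, with a median of 1.38. Its summed level was 0.524% and 0.490% of all pseudo-counts at quiescence and 1.5% in both libraries at clonal expansion. Nop56, a core protein of box C/D snoRNPs, rose 8.58-fold from 8422 and 7564 to 71793 and 65334 (log2 difference 3.10 ± 0.16, limma adjusted p = 2.54e-07). Ncl, nucleolin, rose 5.01-fold from 69455 and 61832 to 330466 and 325687, and the nucleolar helicase gene Ddx21 7.67-fold from 8792 and 9592 to 70531 and 70354. Rrp12 rose from 3376 and 3458 to 27019.5 and 28439.6. The lone member called lower was Ubtf (32076 and 28102, then 25431 and 22369.8), a factor of RNA polymerase I, and its call ended under 8 of 18 alternatives, among them without proliferation replicate 1 or 2, quiescence replicate 1 or clonal expansion replicate 2 (adjusted p 0.0016 to 0.231). The network around Myc had 19 of 25 members higher and 3 lower; Odc1, the first enzyme of polyamine synthesis, rose from 6529.5 and 5699.9 to 17186 and 16527 and Srm, spermidine synthase, from 8283 and 6458 to 54249.8 and 52137. Mxd4, a repressor that opposes Myc (16422 and 16510.1, then 9123 and 8223), and the Myc relative Mycl1 (188 and 141, then 46.2 and 41.9) fell.

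Supply of nucleotides and proteins followed the same direction. Of 28 nucleotide and one-carbon genes, 26 were higher and 2 lower, with a median of 1.48, and 1 was lower without clonal expansion replicate 1 or without quiescence replicate 2. Ppat, the first committed enzyme of purine synthesis, rose from 2809.6 and 3292 to 15373 and 16277 (log2 difference 2.38 ± 0.15), and Ctps, CTP synthase, from 6779 and 6288 to 31521 and 30695 (log2 difference 2.25 ± 0.14). Its paralog Ctps2 fell from 11042 and 10371 to 6494 and 5622. In the list of amino acid supply and ATF4 targets, 23 of 38 were higher and 7 lower. The members that rose most were the glutamine transporter Slc1a5 (20290.1 and 17282, then 71863 and 63778) and tRNA synthetases such as Hars (9703 and 7833, then 29255 and 25998) and Kars (21776 and 17689.7, then 60371 and 56759), which charge histidine and lysine. Stress-linked ATF4 targets were among those that fell: Chac1 went from 3076 and 2714 to 618 and 643 and Ddit3, also called CHOP, from 8609.6 and 6817 to 2330.2 and 2243. In the ER folding list 24 of 30 were higher and 3 lower. Hspa5, the chaperone BiP, rose from 150309 and 132388 to 421024 and 424418 (log2 difference 1.58 ± 0.13) and Hyou1 from 18973 and 19710.5 to 90269 and 100007 (log2 difference 2.30 ± 0.10), while Herpud1 fell from 10899 and 9714 to 4299 and 4781. Ribosomal protein genes had 33 of 76 higher and 1 lower, but 20 and 5 when libraries were scaled to the same total and 24 and 6 without quiescence replicate 2; reads shared with their many pseudogenes make these values uncertain.

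Energy genes rose in part. In glycolysis and the pentose phosphate pathway 20 of 31 were higher and 6 lower, with a median of 0.91. Hk2, hexokinase 2, rose from 3548 and 3684 to 23079.7 and 22333 (log2 difference 2.65 ± 0.12, limma adjusted p = 1.41e-07), Ldha, lactate dehydrogenase A, from 54278 and 45029 to 253789.7 and 226081 and Slc16a1, the lactate transporter MCT1, from 3483 and 3635 to 24407 and 21906. Ldhb fell from 7762 and 6006 to 2284 and 1974, and the glucose transporter gene Slc2a1 from 24740 and 24749 to 16323 and 14356. Of 65 oxidative phosphorylation genes 38 were higher and 2 lower, with a median of 0.37; these counts were 25 and 8 when libraries were scaled to the same total, 25 and 1 without clonal expansion replicate 1, 43 and 1 without clonal expansion replicate 2, 51 and 1 without quiescence replicate 1, and 28 and 5 without quiescence replicate 2. Cyc1, cytochrome c1, rose from 11734 and 9313 to 24747 and 23289.

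Col4a1 and Col4a2, which are divergently transcribed neighbours and encode chains of the type IV collagen of basement membranes, made 2 of the 5 largest gains in pseudo-counts of all called genes. Col4a1 measured 299883 and 307167 at quiescence and 1715616 and 1672252 at clonal expansion, 5.58-fold more (log2 difference 2.48 ± 0.14, limma adjusted p = 3.86e-07). Col4a2 rose 4.44-fold from 236524 and 225853 to 1030513 and 1020494. None of the other type IV chains was called higher: Col4a6 fell from 87.5 and 106 to 24.2 and 10.3 (log2 difference −2.52 ± 0.37), Col4a5 fell from 34788 and 44719 to 18991 and 17842, Col4a3 fell from 42.4 and 66.5 to 27.2 and 27.9 (limma adjusted p = 0.0387), and Col4a4 was not called. Col4a3, Col4a4 and Col4a5 were chosen after their values were seen. Vcan, the large proteoglycan versican, rose from 223673 and 367727 to 1163645 and 1336174 (log2 difference 2.12 ± 0.21). The 5 largest losses were all of genes for secreted proteins: Col1a2, Col3a1, Ptn, Col1a1 and Postn. Col1a2 measured 2680942 and 2418788 and then 1324828 and 1130844 (log2 difference −1.06 ± 0.18, limma adjusted p = 0.000479), Col3a1 1975773 and 1899541 and then 1028242 and 881754, and Col1a1 1397193 and 1301607 and then 736184 and 704238. In each of the 3 both clonal expansion libraries lay below both quiescent ones, but 82.6% of all tested genes had no overlap between the stages. Postn, the matrix protein periostin, measured 890389.6 and 981138 and then 533369 and 520038 (log2 difference −0.83 ± 0.19). The calls of the 3 collagens ended in the fit with no filter on low values and under no other alternative, with adjusted p up to 0.363, 0.247 and 0.148. The Postn call ended in the same fit (adjusted p 0.066). Ptn, the heparin-binding growth factor pleiotrophin, fell from 1208068 and 1092313 to 363134 and 292890.3 (log2 difference −1.82 ± 0.20).

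Over whole lists, 11 of 20 fibrillar and other collagens were lower and 4 higher. Basement membrane genes had 8 lower (40%) and 6 higher (30%) of 20, near the 34.4% of all tested genes in each direction. Against proliferation each of these lists had 9 higher and 4 lower, with medians of 0.48 and 0.34. The collagen list summed to 4701884 and 4198676 pseudo-counts at proliferation, 8179249 and 7873995 at quiescence and 5650204 and 5147986 at clonal expansion. Lama5, a laminin chain, rose from 1329 and 1575 to 10339.8 and 9376 (log2 difference 2.77 ± 0.20), while Nid2, nidogen 2, fell from 52649 and 58641 to 18731 and 18039. Small proteoglycans and other matrix proteins had 27 lower and 6 higher of 41, with a median of −1.0. Thbs1, thrombospondin 1, fell 8.53-fold from 110212 and 140216 to 16705 and 12703 (log2 difference −3.09 ± 0.25, limma adjusted p = 2.96e-06), and Thbs2 fell from 102396 and 115427 to 20814 and 18331. Comp, a cartilage matrix protein of the thrombospondin family, fell from 555 and 506 to 46 and 49.7. Fn1, fibronectin, measured 505741 and 469971 and then 502509 and 494109, with overlapping libraries (log2 difference 0.032 ± 0.15, limma adjusted p = 0.863). Against proliferation the list of small proteoglycans and other matrix proteins had 16 higher and 11 lower, with a median of 0.17.

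Metalloproteinases and their inhibitors were lower in 20 and higher in 9 of 37 cases. Timp1 rose from 10971 and 8303 to 38973 and 35060.1. Timp4 fell from 875 and 854 to 75.9 and 46.6 (log2 difference −3.84 ± 0.33) and Mmp11 from 8325 and 7232 to 878 and 797 (log2 difference −3.21 ± 0.12). Actin, SRF and YAP target genes were lower in 19 and higher in 6 of 35 cases, with a median of −0.50; the number higher was 3 without clonal expansion replicate 1. Against proliferation 29 were lower and 3 higher. Tpm1, tropomyosin 1, fell from 166578 and 146791 to 34526 and 29901 (log2 difference −2.28 ± 0.11), Mylk, myosin light chain kinase, from 10375 and 11511 to 1202 and 928, and the YAP target Ankrd1 from 538 and 498 to 29 and 39.5. Itga5, the fibronectin receptor subunit α5, rose from 43243 and 42677 to 208837 and 192576 (log2 difference 2.22 ± 0.10). Itgb5 fell from 36887 and 32426 to 6907 and 5949 (log2 difference −2.43 ± 0.12).

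Secreted signals changed in both directions. In the Wnt pathway 18 of 36 were lower and 10 higher. Wnt4 rose 11.4-fold from 2327 and 1958 to 25986 and 22963 (log2 difference 3.52 ± 0.13), while the antagonist Sfrp2 fell from 37179 and 29290.3 to 7867 and 6969.6. In the TGF-β, BMP and activin pathway 20 of 46 were higher and 12 lower, or 20 and 18 when libraries were scaled to the same total. Nog, the BMP antagonist noggin, rose from 37.9 and 47.3 to 1279 and 1169 (log2 difference 4.82 ± 0.34, limma adjusted p = 1.45e-06), and Id1, a target of BMP signalling, from 9597 and 7708 to 46214 and 40130.3. The BMP family ligand Gdf6 fell from 421 and 525 to 15.1 and 15.5 (log2 difference −4.86 ± 0.32). Ereg, the EGF receptor ligand epiregulin, rose from 1735 and 2174 to 14149 and 15617 (log2 difference 2.94 ± 0.27), and Pdgfrb, the receptor of the PDGF B chain, fell from 66891 and 60614 to 13079 and 10563 (log2 difference −2.44 ± 0.14). The Notch pathway had 10 of 20 lower and 2 higher, and its receptor gene Notch1 fell from 17476 and 21039 to 6683 and 6223.

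Chemokines, interleukins and inflammation genes had 19 higher (44.2%) and 15 lower (34.9%) of 43, where 34.4% of all tested genes were called each way. When libraries were scaled to the same total, 15 members were higher and 20 lower. Il11, a cytokine of the interleukin-6 family, rose from 166 and 139 to 5306 and 5222 (log2 difference 5.10 ± 0.23, limma adjusted p = 1.33e-07), and the chemokine gene Ccl9 fell from 1927 and 1906 to 289.7 and 217. Alpl, tissue-nonspecific alkaline phosphatase, rose from 98.1 and 72.8 to 6513 and 5349 (log2 difference 6.11 ± 0.27). Complement genes were lower in 10 and higher in 2 of 18 cases, and genes of prostaglandin synthesis and reception lower in 9 and higher in 4 of 19. Against proliferation 10 complement genes were higher and 4 lower, with a median of 0.77, and 3 prostaglandin genes were higher and 9 lower. The synthases Ptges (23927 and 22359, then 53796 and 49095) and Ptges2 (3259.7 and 2630, then 9289 and 8235) rose, whereas the receptor genes Ptger4 (1093 and 958, then 348 and 279), Ptgir (442 and 396, then 148 and 128) and Tbxa2r (1463 and 1069.8, then 101 and 94.1) fell.

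Interferon-stimulated genes fell. Of 45 tested, 36 were lower and 4 higher, 34 at least 2-fold lower, with a median log2 difference of −1.91; leaving out either quiescent or either clonal expansion library kept the number lower at 36. Ifit3, an antiviral protein that binds other IFIT proteins, measured 1079.9 and 833 at quiescence and 23.5 and 26.2 at clonal expansion, 36.8-fold less (log2 difference −5.20 ± 0.33, limma adjusted p = 8.68e-07). Gbp2, a guanylate-binding GTPase, fell 30.3-fold from 2241 and 2181 to 73.2 and 70.7 (log2 difference −4.92 ± 0.20, limma adjusted p = 8.81e-08). The antiviral synthetase gene Oas2 fell from 305 and 250.3 to 8.64 and 10.7, and the chemokine gene Cxcl10 from 126 and 137 to 11.1 and 30.4. In these genes both clonal expansion libraries were below every quiescent and proliferating library. Against quiescence alone, 82.6% of all tested genes had no overlap between the stages. The 4 called higher were Trim25, Ifitm3, Ifi35 and Irf2, with log2 differences of 0.39 to 0.43, and all 4 calls ended when libraries were scaled to the same total. Without clonal expansion replicate 1 the number higher was 1, without clonal expansion replicate 2 it was 3 and without quiescence replicate 2 it was 2. Against proliferation 37 were lower and 6 higher, with a median of −1.58. IFIT, GBP and OAS genes have close paralogs, between which shared reads could be divided.

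The core of the interferon-stimulated response element, GAAANNGAA on either strand, a motif added after these values were seen, occurred in 20 of 42 promoter windows of the list (47.6%). It occurred in 7.11% of the windows of all tested genes, in 7.18% of those of genes at least 2-fold higher and in 8.49% of those at least 2-fold lower. The windows of Ifit3 (chr19:34583279-34583578, plus strand) and Gbp2 (chr3:142620413-142620712, plus strand; both GRCm38.p6, RefSeq) are printed because these genes had the largest falls among list members with a match. Capitals mark the matches, which lie on the opposite strand and are printed as their reverse complement; Ifit3 has 3 of them, the first 155 bases before the start, and Gbp2 has 1, 58 bases before the start.
Ifit3: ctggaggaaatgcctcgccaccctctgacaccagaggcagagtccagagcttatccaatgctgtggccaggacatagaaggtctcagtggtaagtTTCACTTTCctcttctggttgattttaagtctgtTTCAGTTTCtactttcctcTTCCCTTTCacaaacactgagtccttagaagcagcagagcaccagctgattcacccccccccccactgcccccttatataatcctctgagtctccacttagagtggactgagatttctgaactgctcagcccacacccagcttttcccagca
Gbp2: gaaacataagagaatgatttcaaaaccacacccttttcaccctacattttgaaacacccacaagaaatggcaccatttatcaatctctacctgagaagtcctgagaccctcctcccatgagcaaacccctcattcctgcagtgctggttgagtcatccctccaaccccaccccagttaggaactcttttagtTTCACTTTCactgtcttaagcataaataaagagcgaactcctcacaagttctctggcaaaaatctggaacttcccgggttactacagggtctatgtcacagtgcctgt

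**Figure D5:**
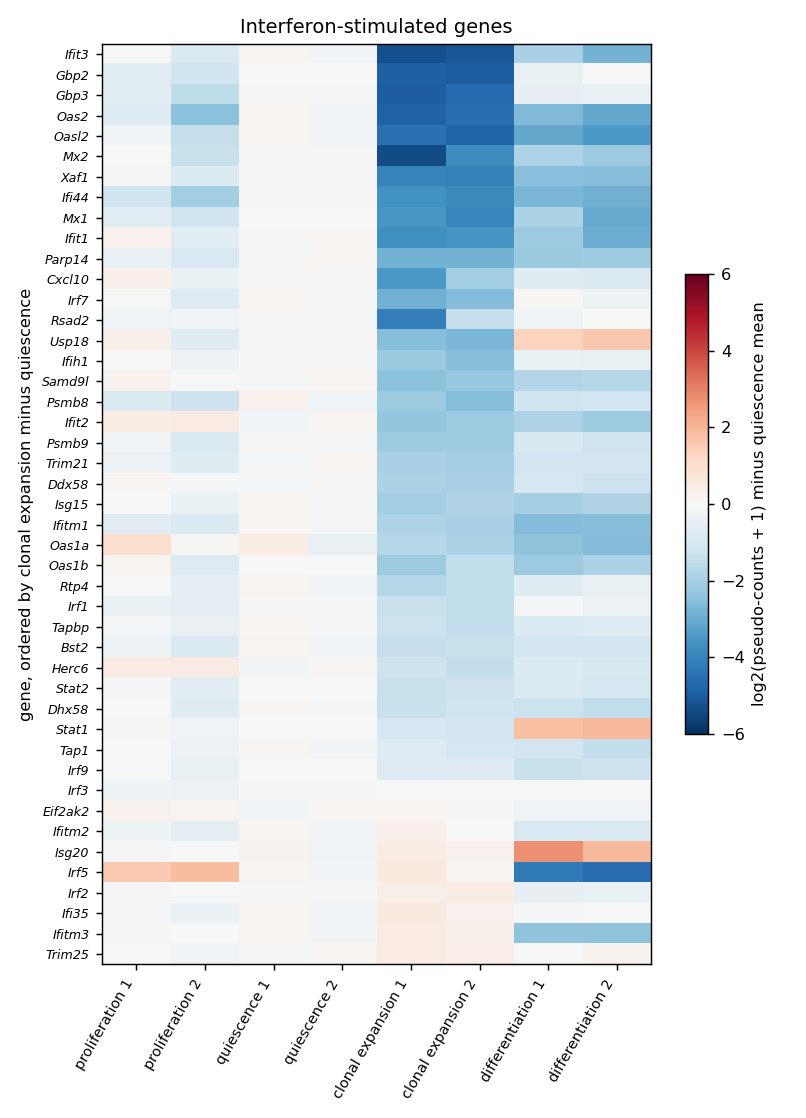
Rows are the 45 tested interferon-stimulated genes, columns the 8 libraries, and colour gives log2(pseudo-counts + 1) minus the gene's mean in the quiescent libraries. The 2 clonal expansion columns are blue for most genes, from Ifit3 at the top with a difference of −5.20, and pale or red only in the bottom rows.

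Clock genes split 11 higher (45.8%) and 9 lower (37.5%) of 24, where 34.4% of all tested genes were called each way. The split was 9 and 12 when libraries were scaled to the same total. Per1 (6477 and 7260.2, then 24724 and 27829), Per2 (1414 and 1855, then 7997 and 9206) and Cry1 (1307 and 1261, then 6647 and 6798), which belong to the repressing arm, rose with log2 differences of 1.94, 2.41 and 2.39. Per3 of the same arm (6435 and 7868, then 1063 and 1182), Dbp (2843 and 2301, then 453 and 396) and Nr1d2 (4231 and 5548, then 1161 and 1008) fell, with log2 differences of −2.67, −2.59 and −2.16.

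More genes listed as imprinted were called lower than higher. Of 30 tested that are listed as expressed from the paternal copy, 15 were lower and 5 higher. Of 31 listed for the maternal copy, 15 were lower and 6 higher. Whether each is imprinted in these cells was not tested. The number of paternal-copy genes higher was 3 without quiescence replicate 1 or clonal expansion replicate 1. These data do not separate the parental copies. Mest fell from 3342 and 2919.7 to 1399.8 and 821 (log2 difference −1.54 ± 0.25, limma adjusted p = 0.00033), Sgce from 18294 and 15901 to 4845 and 3984 and Rian, a maternally expressed noncoding RNA, from 332 and 468 to 59 and 53.2. Peg12 rose from 1160.3 and 1106 to 3362 and 3446. Plagl1, a zinc finger transcription factor, fell from 675 and 699 to 347 and 278 (log2 difference −1.14 ± 0.28), a call that ended under 1 of 18 alternatives, the quantile normalization (adjusted p 0.00104 to 0.0973). Igf2, the fetal growth factor, measured 54325 and 70440.4 and then 40685 and 49681 (log2 difference −0.46 ± 0.18, limma adjusted p = 0.0438), and its neighbour H19, a noncoding RNA, 2639 and 3411 and then 4733 and 6794 (log2 difference 0.92 ± 0.26, limma adjusted p = 0.01). The Igf2 call ended under 7 of 18 alternatives, among them without proliferation replicate 1 or 2, quiescence replicate 2 or clonal expansion replicate 1 (adjusted p 0.00601 to 0.233), and that of H19 under 3 of 18, among them without quiescence replicate 1 or clonal expansion replicate 2 (adjusted p 0.00447 to 0.1). The libraries do not mark strand, so Igf2 cannot be told apart from the antisense Igf2as.

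The summed levels of markers of other cell types moved in both directions; their part in the results above was not tested. The macrophage and blood list had 8 of its 17 members tested, 1 higher and 3 lower, and the higher call ended without quiescence replicate 2 or either clonal expansion library. Its summed level was 7408 and 5727 pseudo-counts at quiescence and 4727 and 3516 at clonal expansion. Of its 16 members in the table, 6 or 7 per library were below 1 pseudo-count. The pan-leukocyte gene Ptprc was at most 2.73 in any library of both stages and the macrophage gene Emr1 at most 0.95. The endothelial list summed to 1040 and 1235 at quiescence and 1661 and 1616 at clonal expansion, with 2 of 6 tested members higher and 3 lower. The epithelial list summed to 367 and 342, then 444 and 505, with 1 of 6 higher, Krt19 (35.2 and 18.6, then 194 and 187), and 1 lower. Muscle, bone and cartilage markers had 1 of 10 higher, Alpl, whose values are given above, and 6 lower, and they summed to 25508 and 26705, then 18423 and 18055. Neural markers had 1 of 7 higher and 5 lower, and they summed to 3388 and 2858, then 3863 and 3569. The fibroblast and preadipocyte list itself had 12 of 16 lower and 1 higher, Ly6a (10123 and 7249, then 43134 and 35508), and 2 higher without quiescence replicate 2. Its summed level went from 8008526 and 7317777 to 4507735 and 3986717.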

How the data were processed

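The 8 libraries (total RNA, unstranded TruSeq kit, single reads of 100 nt on a HiSeq2000, per the labels' protocols) were deposited as 1 table of pseudo-counts with gene positions. The authors made this signal, a count scaled for library size, with edgeR after CASAVA 1.8.2, on mm9, per the submitters' processing notes. The deposited name of the values gives the scaling as RLE. The aligner and gene models are not given in the sources used here. Because the deposited values are not raw counts, log2(value + 1) was fitted with limma 3.58.1 (R 4.3.3), with a mean-variance trend, over 8 libraries in 4 stages (4 residual degrees of freedom), for the 14647 genes with a mean of at least 10. P-values were two-sided and adjusted by Benjamini-Hochberg over all of these genes, with a threshold of 0.05. Tables, motif counts and plots were made with Python 3.11.15, pandas 2.3.3, numpy 2.4.6 and matplotlib 3.10.9. The fit was also run on simulated data with independent noise and few changed genes. That setting differs from these libraries, so it cannot show how the fit behaves on them.

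The members and lists were chosen with earlier results of these data known. Named genes were the 15 largest rises and falls among genes whose stages do not overlap and whose higher stage averages 200 or more, the 5 largest gains and losses in pseudo-counts, up to 4 called members per list and direction with a mean of at least 50, and a set of regulators and markers named whether called or not. The text names part of these, and a few are not reported here; any other gene is said to be chosen after its values were seen. Alternatives covered scaling, pseudocount, filter, variance trend, length trend, replicate block and leaving out each library. Gene names were used as deposited; no mm9 sequence was used here, and promoters came from RefSeq (GRCm38.p6), matched by gene identifier. Depth as raw reads is unknown.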

Additional observations from a re-analysis of the deposited data

How the results depend on the processing

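Across 18 alternatives, 8 of which each left out 1 library, 325 of 388 named genes kept their call and sign and 63 did not, and none of the 10071 calls became a call in the opposite direction under these alternatives. Leaving out 1 library gave 4259 to 4959 genes higher and 4418 to 4981 lower than at quiescence, and 3886 to 5094 higher and 3975 to 4969 lower than at proliferation. With libraries scaled to the same total, 3183 genes were higher than at proliferation, against 4792 in the deposited scaling. The sign turned for 8 named genes, of which Pde8b, Atp5l and Lyz1 had been called lower. With the same total, Fn1 was −0.20 (log2) and Fabp4 −0.10. Under quantile normalization Pde8b was 0.078, Atp5l 0.055, Lyz1 0.005, Fn1 −0.31 and Wnt10b 0.048. Leaving out 1 library moved Fos from −0.14 (without quiescence replicate 2) to 0.70 (without quiescence replicate 1), Fn1 from −0.021 to 0.084 and Fabp4 from −0.082 to 0.36 (likewise), and Mki67 from −0.22 (without clonal expansion replicate 1) to 0.030 (without clonal expansion replicate 2). The cause was not tested. Of 1800 list counts, 97 moved by over 1.5 times, in 22 lists. Libraries of the same experiment number deviated together between quiescence and clonal expansion (r = 0.354 across genes), but less between the other stages (0.013 to 0.134), so the number was not taken as a pairing. With the number as a replicate block, 5197 genes were higher and 5181 lower, and 10063 of the 10071 calls remained. The deposited values keep no raw read depth, which limits what can be said of genes at a few pseudo-counts.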
